A study of Mus musculus with 3 samples.

Results

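The genes described are 8 regulators of joints and ligaments, Gdf5, Gdf6, Nog, Erg, Osr1, Osr2, Barx1 and Prg4, chosen by name out of 22072 gene symbols in the tables, and all 8 were found. RNA sequencing was done on ScxGFP positive cells, sorted by flow cytometry from mouse embryonic hindlimbs of mixed strain background. A single library was made at each of 3 ages, E11.5, E13.5 and E15.5, from 18, 12 and 11 pooled hindlimbs. ScxGFP is a reporter of Scx, which encodes the tendon and ligament transcription factor scleraxis, and every library comes from reporter-positive cells. No reporter-negative cells were analysed here, so levels outside the sorted population are not known. With 1 library per stage there is no replicate check and no test, and each difference is one between 2 libraries of pooled embryos. In such bulk samples, more cells of a type and more RNA per cell cannot be told apart.

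A synovial joint begins as a band of flattened cells, the interzone, that forms across a cartilage template and stops becoming cartilage. The interzone secretes GDF5 and GDF6, ligands of the bone morphogenetic protein (BMP) family that signal through BMP receptors and Smad proteins, and the cartilage around it makes noggin, which binds such ligands and blocks them. The transcription factor ERG is made in cells that become articular cartilage, the odd-skipped proteins OSR1 and OSR2 act in joint and connective tissue cells, and the homeobox protein BARX1 can hold back cartilage formation. Lubricin, the product of Prg4, lubricates the surfaces of joints and tendons. Several of these genes are also active in ligaments and in the places where tendons meet bone.

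Values are FPKM (fragments scaled by transcript length and by the mapped fragments of the library), summed over the transcripts of a gene. Each interval is an approximate 95% Poisson interval from a read count estimated from the coverage. The intervals cover counting error only. The sorted gene itself, Scx, stood at 375, 410 and 213 FPKM in stage order. Estimated depth ranged from 13300000 to 17300000 reads on the listed transcripts. A change is the difference of log2(FPKM + 1), which understates the change of low genes. Genes were compared where their mean over the 3 libraries was at least 1 FPKM and every estimate in the 2 libraries compared had the status OK. A gene was counted as higher or lower from a 2-fold difference on that scale. Of the 8 regulators, 7 reached the mean of 1 FPKM, and Barx1, with a mean of 0.864, did not. Of the 7, Erg, Nog, Gdf6 and Prg4 were under 1 FPKM at E11.5 and passed through the later libraries, so counts over the regulators are given for all 8 whatever their level.

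At E13.5, 5 of the 8 regulators were at least 2-fold higher than at E11.5, namely Erg, Prg4, Nog, Osr1 and Barx1, and 0 were at least 2-fold lower. For comparison, 6.00% of all compared genes passed 2-fold upward at this step and 1.02% downward, and among all genes detected in either library, with no filter on low values, the shares were 3.96% and 0.850%. The median change of the 8 was 1.06, against 0.07 for all compared genes. From E13.5 to E15.5 none of the 8 passed 2-fold in either direction, where 3.58% of compared genes were higher and 0.713% lower (2.55% and 0.525% with no filter). The median of the 8 at this later step was -0.05 (0.04 for all compared genes). Over the whole interval, E15.5 against E11.5, 4 of the 8 were at least 2-fold higher (Erg, Prg4, Barx1 and Osr1) and 0 lower, against 12.6% and 2.14% of compared genes, or 8.80% and 1.59% with no filter. This last comparison shares its libraries with the other two.

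The split of higher and lower genes at the later step moved with the scaling. After all libraries were scaled to a common sum of FPKM, the mean of the 3 sums, 67.1% of the genes past 2-fold were higher at E15.5 than at E13.5, where 83.4% were as deposited, and the median change of all compared genes was -0.13 instead of 0.04. Relative to that median, Gdf5 differed by -1.03 as deposited and by -1.01 after rescaling.

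**Figure D1:**
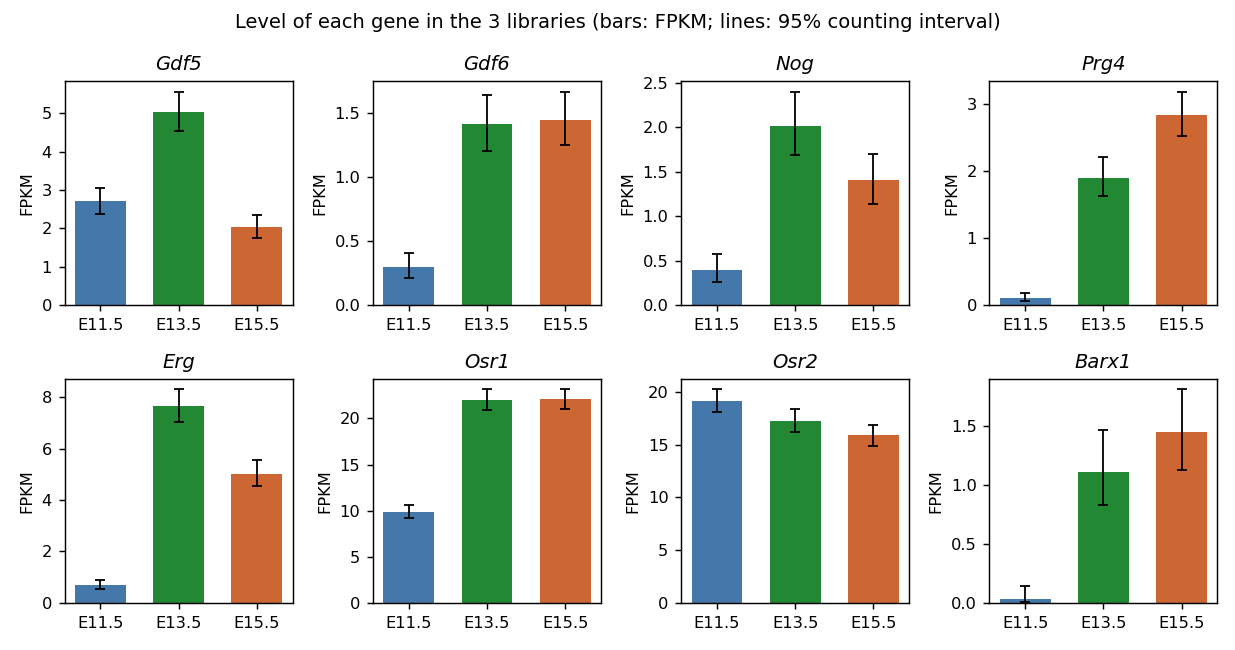
FPKM (y axis, from 0, own scale for each gene) of the 8 regulators in the E11.5, E13.5 and E15.5 libraries, 1 bar per library, with approximate 95% counting intervals as lines. Gdf5, Nog and Erg are highest at E13.5, Osr2 is highest at E11.5, and Barx1 and Prg4 are near 0 at E11.5.

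Among the secreted signals, Gdf5 (NM_008109, mm9 chromosome 2, 155766761 to 155771100) was highest at the middle stage. It stood at 2.70 FPKM (2.37 to 3.06) in the E11.5 library, 5.03 (4.55 to 5.56) in the E13.5 library and 2.04 (1.74 to 2.36) in the E15.5 library. The E13.5 library was thus above both others, and no interval overlapped that of E13.5. In FPKM, E13.5 was 1.86-fold above E11.5 (counting interval 1.58 to 2.20) and 2.47-fold above E15.5 (2.07 to 2.98). On the log2(FPKM + 1) scale the change from E13.5 to E15.5 was -0.99, just short of 2-fold. Of the compared genes, 0.741% had a lower value than Gdf5 at that step. With a pseudocount of 0.1 FPKM the change was -1.26, past 2-fold.

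Gdf6 (NM_013526, chromosome 4, 9771519 to 9789492), the closest relative of Gdf5 among the 8, did not show that peak. Its level was 0.298 FPKM (0.213 to 0.406) in the E11.5 library, 1.42 (1.21 to 1.64) in the E13.5 library and 1.45 (1.25 to 1.67) in the E15.5 library. The later libraries lay within each other's intervals and both were above E11.5, by 4.75-fold (3.34 to 6.86) at E13.5. On the log2(FPKM + 1) scale that difference was 0.90, and with a pseudocount of 0.1 FPKM it was 1.93. The ratio of Gdf5 to Gdf6 within a library was 9.06 (6.45 to 12.98) in the E11.5 library, 3.55 (2.96 to 4.30) in the E13.5 library and 1.404 (1.14 to 1.73) in the E15.5 library. It was lower at each later stage, and the intervals did not overlap. The third ligand of this group, Gdf7, was at 0.264, 0.481 and 1.318 FPKM in stage order.

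Nog (NM_008711, chromosome 11, 89161952 to 89163873), which encodes the BMP antagonist noggin, was at 0.391 FPKM (0.266 to 0.571) in the E11.5 library, 2.02 (1.69 to 2.40) in the E13.5 library and 1.403 (1.14 to 1.70) in the E15.5 library. E13.5 was 5.17-fold above E11.5 (3.38 to 7.89), and E15.5 was 1.44-fold below E13.5 (1.10 to 1.89). The intervals of E13.5 and E15.5 overlap at their ends, so the order of these libraries is less certain than their distance from E11.5. Gdf5 stood at 6.91 times the level of Nog at E11.5 (4.60 to 10.4), 2.49 times at E13.5 (2.04 to 3.06) and 1.45 times at E15.5 (1.13 to 1.88). FPKM of the ligand gene and of the antagonist gene were thus closest at E15.5.

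**Figure D2:**
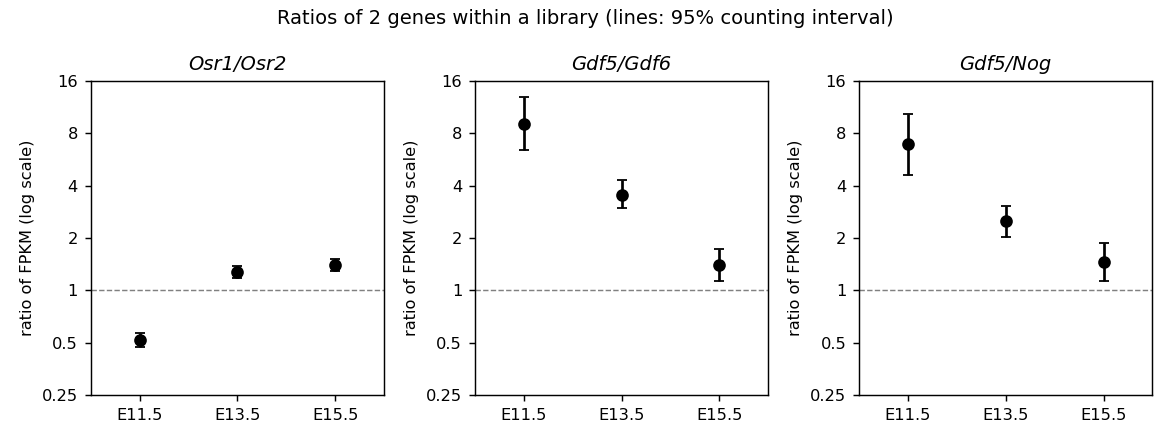
Ratio of the FPKM of 2 genes within each library (y axis, log scale; x axis, stage, 1 library each), with 95% counting intervals and a dashed line at 1. Osr1/Osr2 crosses from 0.515 at E11.5 to 1.28 at E13.5, and Gdf5/Gdf6 and Gdf5/Nog are lower at each later stage.

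Among the transcription factors, Erg (NM_133659, chromosome 16, 95581811 to 95751972) had the largest change on the log2(FPKM + 1) scale, while Barx1, from about 2 reads at E11.5, had the larger ratio. The Erg level was 0.708 FPKM (0.535 to 0.906) in the E11.5 library, 7.65 (7.02 to 8.30) in the E13.5 library and 5.03 (4.56 to 5.54) in the E15.5 library. The 3 intervals were apart, with E11.5 far below the other libraries and E13.5 the highest. E13.5 was 10.8-fold above E11.5 (8.31 to 14.5), a change of 2.34 on the log2(FPKM + 1) scale, and 0.713% of compared genes had a change at least as large. E15.5 was 1.52-fold below E13.5 (1.34 to 1.73), a change of -0.52.

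Erg is also a gene of endothelial cells, so endothelial markers are given beside it. Summed over 12 markers they reached 2.60, 3.96 and 11.51 FPKM in stage order. None of the 12 reached 1 FPKM at E11.5 or E13.5, and 4 did at E15.5. Cdh5, which encodes the junction protein VE-cadherin, was at 0.397, 0.316 and 0.917 FPKM, and Pecam1, another endothelial junction gene, at 0.117, 0.409 and 0.504. Sox17 was listed at 0 at E11.5 and Cldn5 at E13.5. Tek went through 0.151, 0.686 and 2.63 FPKM in stage order, Emcn through 0.0174, 0.540 and 2.87, and Kdr through 0.136, 0.716 and 1.83, so these 3 were higher at each later stage. Only Tek and Emcn reached a mean of 1 FPKM, and they did so through E15.5. From E11.5 to E13.5, 0 of these 2 passed 2-fold on the log2(FPKM + 1) scale and 2 of 2 with a pseudocount of 0.1. The part of endothelial cells in the Erg levels was not tested.

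Fli1, the ETS factor closest to Erg in sequence, was lower at E13.5 than at E11.5, where Erg was higher, and both were lower at E15.5 than at E13.5. The Fli1 levels were 21.4, 11.3 and 6.04 FPKM in stage order. The ratio of Fli1 to Erg was 30.2 (23.5 to 40.1) in the E11.5 library, 1.48 (1.34 to 1.64) in the E13.5 library and 1.20 (1.06 to 1.36) in the E15.5 library. Of 9 other ETS factor genes with a mean of at least 1 FPKM, 1 passed 2-fold upward from E11.5 to E13.5 (Etv1, at 1.35 and 4.52 FPKM) and 0 downward. Etv1 is a target of fibroblast growth factor signalling. Etv4, at 1.94, 1.19 and 1.53 FPKM in stage order, and Etv5, at 9.61, 9.43 and 13.1, were not higher at E13.5 than at E11.5. Fev, which is close to Erg and Fli1 in sequence, was listed at 0 in every library.

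**Figure D3:**
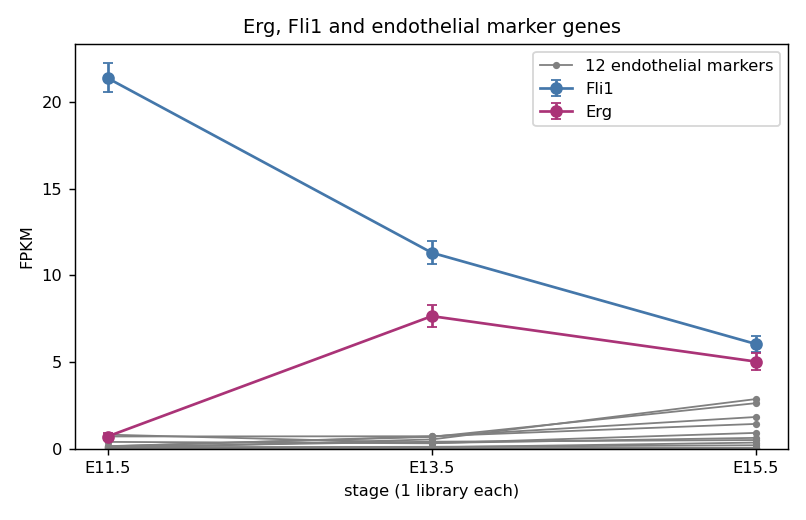
FPKM (y axis, from 0) of Erg, Fli1 and 12 endothelial marker genes in the 3 libraries (x axis), with 95% counting intervals for Erg and Fli1. Erg is highest at E13.5, at 7.65 FPKM, Fli1 is lower at each later stage, and no endothelial marker exceeds 2.87 FPKM.

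The odd-skipped genes were the most abundant of the 8 and changed places. Osr2 (NM_054049, chromosome 15, 35225867 to 35233060) was at 19.1 FPKM (18.1 to 20.2) in the E11.5 library, 17.2 (16.2 to 18.3) in the E13.5 library and 15.9 (14.9 to 16.9) in the E15.5 library. E11.5 was 1.11-fold above E13.5 (1.02 to 1.21) and E13.5 was 1.09-fold above E15.5 (0.993 to 1.19). Intervals of the levels at neighbouring stages overlapped, while E11.5 was 1.21-fold above E15.5 (1.11 to 1.31). Osr1 (NM_011859, chromosome 12, 9581248 to 9588306) was at 9.85 FPKM (9.16 to 10.6) in the E11.5 library, 22.0 (20.9 to 23.1) in the E13.5 library and 22.1 (21.0 to 23.2) in the E15.5 library. The E13.5 and E15.5 libraries were alike and both were above E11.5, by 2.23-fold (2.04 to 2.44) at E13.5. The ratio of Osr1 to Osr2 was 0.515 (0.470 to 0.564) in the E11.5 library, 1.28 (1.18 to 1.38) in the E13.5 library and 1.39 (1.28 to 1.504) in the E15.5 library. Rescaling a library leaves such a ratio as it is.

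The call of Osr1 as 2-fold higher sits at the threshold. With median-ratio size factors its change from E11.5 to E13.5 was 0.97 instead of 1.08, and from E11.5 to E15.5 it was 0.96 instead of 1.09. Osr1 and Osr2 encode related zinc finger proteins, but their annotated transcripts (GENCODE M21, GRCm38) shared 0 words of 40 bases, about the length of 1 read here. The same held for Gdf5 and Gdf6.

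Barx1 (NM_007526, chromosome 13, 48758405 to 48761876), the homeobox gene, was at the edge of detection at E11.5. It was listed at 0.0296 FPKM there, about 2 estimated reads (0.00469 to 0.140 FPKM). At E13.5 it was at 1.11 FPKM (0.834 to 1.47) and at E15.5 at 1.45 (1.13 to 1.81), and these intervals overlapped. The ratio of E13.5 to E11.5 was 37.5, with a counting interval of 7.61 to 245 that reflects the few reads at E11.5. Its relatives Barx2, Barhl1 and Barhl2 stayed under 1 FPKM in every library, with Barx2 at 0.579, 0.177 and 0.531.

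Promoter sequence was at hand for 2 of the 8 genes, Barx1 and Erg, both past 2-fold upward from E11.5 to E13.5. The 250 bases upstream of their start sites are printed from RefSeq (GRCm38.p6). The Barx1 start site used lies 38 bases from the annotated start of its transcript. For Erg, of 3 annotated promoters, the one at the start of the transcript in the tables, NM_133659, is shown. Capitals mark matches to 4 motifs searched on both strands: CAGATG and CACGTG, forms of the E-box that basic helix-loop-helix proteins bind, GGCGCC, a GC-rich element of BMP-responsive genes, and CCGGAA, the core of many ETS sites.
Barx1, chr13:48662786-48663035, plus strand: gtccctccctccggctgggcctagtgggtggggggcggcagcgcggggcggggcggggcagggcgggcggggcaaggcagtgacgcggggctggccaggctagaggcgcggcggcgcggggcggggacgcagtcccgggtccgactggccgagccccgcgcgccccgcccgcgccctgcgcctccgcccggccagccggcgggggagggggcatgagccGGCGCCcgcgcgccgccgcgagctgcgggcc
Erg, chr16:95530366-95530615, minus strand: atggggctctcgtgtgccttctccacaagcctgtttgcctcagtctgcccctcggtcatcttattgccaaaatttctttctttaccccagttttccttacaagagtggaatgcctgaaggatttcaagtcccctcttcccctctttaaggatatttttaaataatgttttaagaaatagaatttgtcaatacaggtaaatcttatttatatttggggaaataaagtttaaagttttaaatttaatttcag
The Barx1 stretch held 85.6% G and C, a share reached by 0.107% of 32851 promoters of the same length, and the Erg stretch 36.0%, a share not exceeded by 6.24% of them. The Erg promoters not printed held 48.8% and 47.2%, shares not exceeded by 38.1% and 32.4%, so the Erg value depends on the promoter chosen. Barx1 held 1 match, GGCGCC, starting 31 bases before the start site, and Erg held 0 of the 4 motifs. Among all promoters, 9.59% held GGCGCC, 14.4% CAGATG, 6.02% CACGTG and 12.0% CCGGAA. A match is a description of these letters, and none of these data show what binds there.

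Prg4 (mm9 chromosome 1, 152296542 to 152313295), the lubricin gene, was higher at each later stage. It was at 0.113 FPKM (0.0662 to 0.188) in the E11.5 library, 1.90 (1.63 to 2.21) in the E13.5 library and 2.84 (2.53 to 3.19) in the E15.5 library. All 3 intervals were apart. E13.5 was 16.9-fold above E11.5 (9.83 to 29.4), on about 16 estimated reads at E11.5, and E15.5 was 1.49-fold above E13.5 (1.23 to 1.82). On the log2(FPKM + 1) scale these steps were 1.38 and 0.40. The Prg4 locus overlaps that of Tpr, a nuclear pore gene, by 524 of 16754 bases, and no strand setting is given in the sources used here. The 16754 bases include introns, while the Prg4 transcripts are 1884 and 4278 bases long, so the overlap may be a larger share of a transcript. Tpr was at 31.6, 36.3 and 36.3 FPKM in stage order, and its part in the Prg4 values was not tested. Between E11.5 and E15.5 Prg4 differed 25.2-fold.

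Prg4 is also the only one of the 8 with more than 1 transcript in the tables. The long form, NM_021400, was at 0.0827, 0.599 and 1.05 FPKM in stage order, and the short form, NM_001110146, at 0.0298, 1.30 and 1.79. In stage order the short form made up 26.5%, 68.5% and 62.9% of the gene's FPKM. At E11.5 that share rests on about 2 and 13 estimated reads for the short and the long form. Reads of shared exons are divided between the forms by an estimate, so the shares are less certain than the sum.

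In the GRCm38 annotation the short form lacks 2394 coding bases of the long one, in 3 stretches of 144, 120 and 2130 bases, which is the difference between the lengths in the tables. The first 2 stretches are whole exons. The third lies inside the large exon that encodes the heavily glycosylated middle of lubricin (chr1:150454121-150456250, minus strand). The join that marks the short form is shown with both ends of that stretch in the long form, since only reads over such joins or inside the stretches tell the forms apart. Each sequence is coding-strand, and capitals mark the 10 bases on either side of the join or boundary.
Short form, join: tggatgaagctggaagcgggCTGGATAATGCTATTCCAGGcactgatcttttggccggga
Long form, start of the stretch: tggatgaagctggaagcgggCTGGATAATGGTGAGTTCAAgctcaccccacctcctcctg
Long form, end of the stretch: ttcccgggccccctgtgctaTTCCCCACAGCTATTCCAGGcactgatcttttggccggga
The left part of the first sequence matches that of the second, and its right part matches that of the third. Together the missing stretches are 65.4% of the long form's coding sequence.

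**Figure D4:**
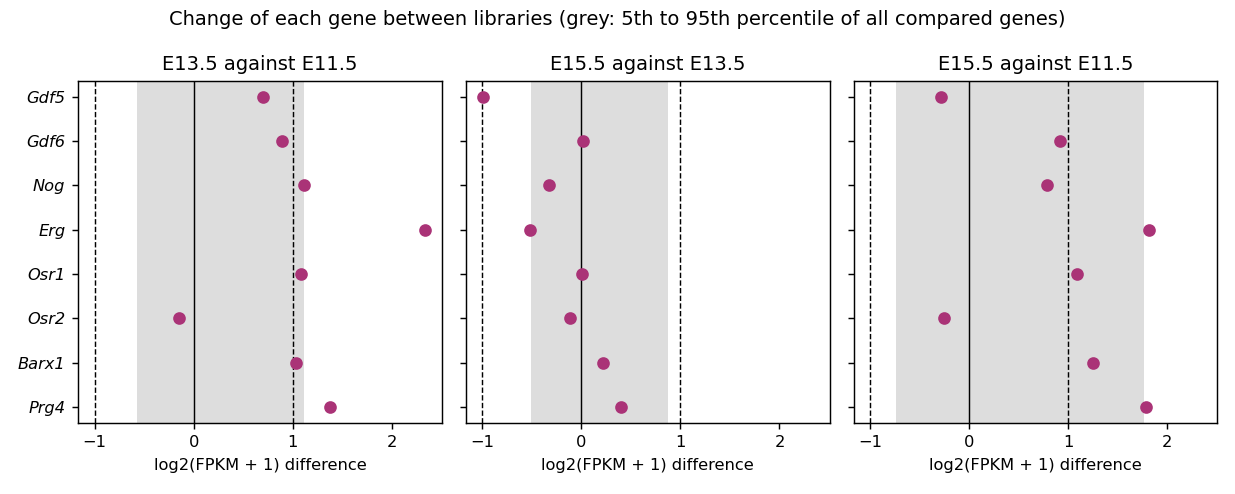
Difference of log2(FPKM + 1) (x axis) for each of the 8 genes (y axis) in the 3 comparisons, with dashed lines at 2-fold and a grey band from the 5th to the 95th percentile of all compared genes. Erg, Prg4 and, barely, Nog lie right of the band at E13.5 against E11.5, Gdf5 and, barely, Erg lie left of it at E15.5 against E13.5, and Osr2 is the only one of the 8 below 0 at the first step.

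The order of the 8 by FPKM, which is per length, changed between E11.5 and E13.5. At E11.5 it ran Osr2, Osr1, Gdf5, Erg, Nog, Gdf6, Prg4, Barx1, where the neighbours Erg and Nog, Nog and Gdf6, and Prg4 and Barx1 had overlapping intervals. At E13.5 it ran Osr1, Osr2, Erg, Gdf5, Nog, Prg4, Gdf6, Barx1, and the last 4 overlapped from neighbour to neighbour. At E15.5 Prg4 stood above Gdf5 in the fourth place, and Gdf5, Barx1, Gdf6 and Nog followed with overlapping intervals. By rank among all 22072 symbols, Osr2 was within the top 5.98% at E11.5 and Osr1 within the top 5.36% at E13.5. Barx1 ranked within the top 69.7% at E11.5 and 46.8% at E15.5.

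For each of the 7 genes with a mean of at least 1 FPKM, the genes nearest over the 3 libraries were found by Euclidean distance of log2(FPKM + 1). Nothing about shared function or control follows from such likeness over 3 points. Erg had 1 gene within a distance of 0.5, Otor, at 0.567, 5.96 and 3.81 FPKM in stage order (distance 0.47). Its next neighbour was Bai2 (distance 0.50). Gdf5 had 60 genes within 0.5, the nearest being Cnksr2 and Prelid2 (0.25 and 0.26). Osr1 had 51, led by Snai2, a zinc finger factor of mesenchymal cells, at 10.1, 23.0 and 20.9 FPKM (0.10), and Ptprd (0.18). Osr2 had 418, led by the chromatin-associated gene Pogz (0.06) and Yap1, an effector of Hippo signalling (0.08). For Gdf6 the nearest were Prokr2 and Pcdhb16, for Nog Flrt1 and Hebp1, and for Prg4 Lhfpl1 and Kcnn3, at distances from 0.07 to 0.19. Erg thus had the fewest genes close to it of the 7.

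Other genes of joint formation were counted from a list of 22. At E13.5, 10 of the 17 compared were at least 2-fold higher than at E11.5 and 0 lower, with a median change of 1.11. The shares of all compared genes at that step were 6.00% and 1.02%. The largest differences between E11.5 and E15.5 were in Htra1, a secreted protease gene, at 0.110, 6.07 and 52.1 FPKM, in the hyaluronan receptor gene Cd44, at 0.331, 2.99 and 22.7, in Dkk3, at 1.403, 9.85 and 27.9, and in Tppp3, at 1.81, 4.83 and 28.6. These 4, named for their large change up to E15.5, were also the only 4 of 18 compared list genes at least 2-fold higher from E13.5 to E15.5. The list median at that step was 0.30, and 3.58% of all compared genes passed 2-fold upward. None of the 8 regulators did. Creb5, a transcription factor of articular cartilage that is known to act on Prg4, was at 2.82, 13.2 and 12.6 FPKM. Wnt9a, a ligand gene of the interzone, was at 0.438, 2.10 and 3.04 FPKM, and the hyaluronan synthase gene Has2 at 2.34, 5.32 and 7.57. Dcx, at 8.70, 3.38 and 4.17 FPKM, was left out of the comparisons with E11.5 because its estimates there had the status FAIL.

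The pathway through which GDF5, GDF6 and noggin act was described by 5 further lists. From E11.5 to E13.5, 6.00% of all compared genes passed 2-fold upward and 1.02% downward, with a median change of 0.07. Among other BMP and GDF ligand genes, 4 of 7 compared passed 2-fold upward from E11.5 to E13.5 and 0 downward (median 1.52): Bmp2 at 1.51 and 6.21 FPKM, Bmp3 at 1.10 and 5.21, Bmp5 at 0.943 and 6.29, and Gdf10 at 0.796 and 12.3. Of 9 compared antagonist genes besides Nog, 6 were higher and 1 lower (median 1.15). Fst, which encodes follistatin, was at 0.810, 5.04 and 7.52 FPKM in stage order, and Bmper at 0.836, 4.32 and 6.94. The lower one was Grem1, the gremlin gene, at 9.45, 2.48 and 4.38. Chrd, which encodes chordin, was at 0.340, 1.92 and 4.01 FPKM.

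Receptor and Smad genes with a mean of at least 1 FPKM differed less. Of 7 receptor genes, 0 passed 2-fold upward from E11.5 to E13.5 and 1 downward, Acvr2b, at 5.81 and 1.83 FPKM (median 0.47). The shares of all compared genes were 6.00% and 1.02%. Bmpr1b, the type I receptor with the highest affinity for GDF5, was at 1.72, 4.22 and 2.81 FPKM in stage order, so its highest library was the same as that of Gdf5. Bmpr1a was at 13.6, 19.6 and 18.2 FPKM. None of the 5 compared Smad genes passed 2-fold in either direction in any of the comparisons, and their median was 0.11 at E13.5 against E11.5. With size factors that median was -0.0050. Smad9, the listed Smad gene with a mean under 1 FPKM, was not compared. It was at 0.123 FPKM (0.0794 to 0.181), 1.12 (0.965 to 1.28) and 0.780 (0.664 to 0.915) in stage order. Its change from E11.5 to E13.5 was 0.91 on the log2(FPKM + 1) scale, and its highest library was E13.5.

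Target genes of BMP signalling did not share one course. At E13.5, 1 of 8 compared was at least 2-fold higher (Id2) and 0 lower, with a median of 0.57. The shares of all compared genes were 6.00% and 1.02%, with a median of 0.07. From E13.5 to E15.5, 0 of 8 were higher and 3 lower, with a median of -0.72. Of all compared genes, 3.58% were higher at this later step and 0.713% lower, with a median of 0.04. After rescaling to a common sum of FPKM, 4 of the 8 target genes were lower, with a median of -0.88, where the all-gene median was -0.13. Id1, which encodes an inhibitor of basic helix-loop-helix factors, was at 66.0, 92.6 and 33.8 FPKM in stage order, Id2 at 8.67, 22.6 and 7.73, and Hey1 at 11.4, 18.7 and 4.05. Id3 and Id4 were likewise highest at E13.5. Msx1, Msx2, Bambi and Atoh8 were instead highest at E11.5, Msx1 at 4.76, 2.11 and 1.48 FPKM and Bambi at 2.34, 1.57 and 1.37. For Atoh8 the intervals of E11.5 (3.19 to 3.99) and E13.5 (2.91 to 3.73) overlapped, and Msx2 had a mean under 1 FPKM. These genes respond to other signals too.

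**Figure D5:**
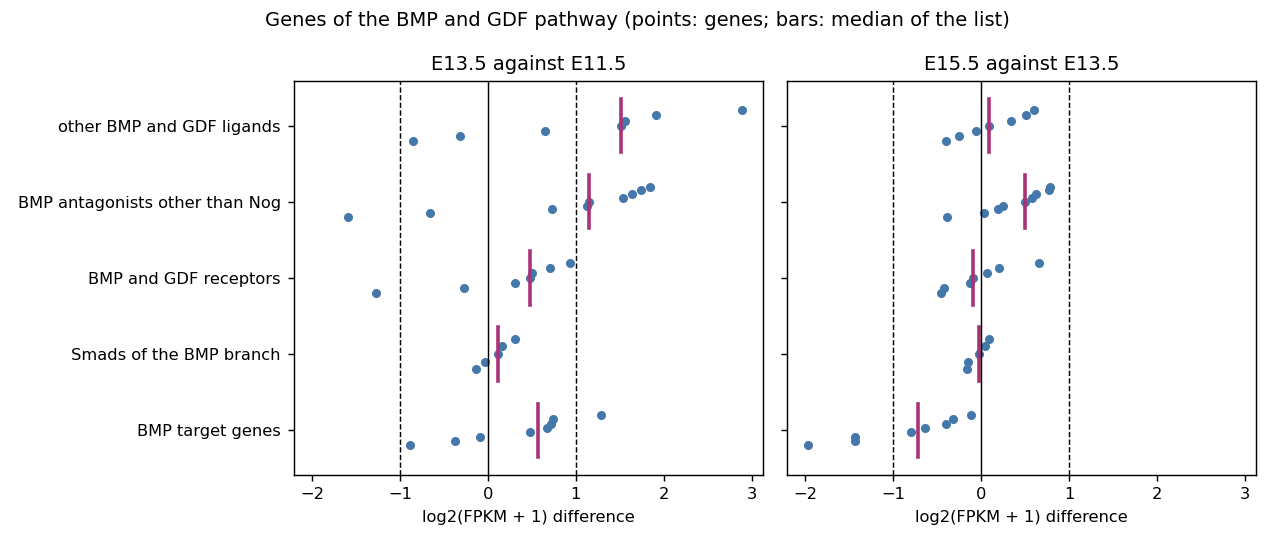
Difference of log2(FPKM + 1) (x axis) at the earlier and the later step for 5 lists of BMP and GDF pathway genes with a mean of at least 1 FPKM (points), with list medians as bars and dashed lines at 2-fold. The BMP target genes lie mostly right of 0 at the first step, with a median of 0.57, and left of 0 at the second, with a median of -0.72.

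Markers of other cell types moved over the same stages, and their part in the levels of the 8 regulators was not tested. The summed FPKM of 14 cartilage markers was 167, 324 and 453 in stage order. From E11.5 to E13.5, 9 of these 14 passed 2-fold upward, against 6.00% of all compared genes. Sox9, the cartilage progenitor factor, was among the cartilage markers that did not, at 56.2, 41.0 and 22.5 FPKM. Skeletal muscle markers, 10 in all, summed to 13.8, 67.0 and 231 FPKM, of which Actc1 alone gave 5.35, 39.3 and 164. Pax3 among them was instead lower at each later stage, at 1.17, 0.112 and 0.0352 FPKM. Sums of 9 blood markers were 10.6, 15.1 and 13.7, of 8 epidermis markers 3.87, 7.43 and 12.9, and of 7 nerve and Schwann markers 2.999, 2.49 and 3.18. Ptprc among the blood markers and Krt15 among the epidermis markers were listed at 0 at E11.5. Osr1 is also active in fibroblasts and muscle connective tissue. The 9 genes listed as markers of these cells summed to 181, 226 and 254 FPKM, and 3 of the 9 passed 2-fold upward from E11.5 to E13.5. Tcf4, listed beside the separate gene Tcf7l2, gave 36.7, 44.3 and 41.9 FPKM of these sums, and how specific it is to these cells was not tested. For the 10 tendon markers the sum was 431, 828 and 2176 FPKM, with Tnmd listed at 0 at E11.5. Collagen genes carried much of both sums at E15.5, Col1a1 with 1322 FPKM of the tendon sum and Col2a1 with 230.3 FPKM of the cartilage sum. Scx, Mkx (1.44, 15.1 and 13.2 FPKM), Six2 (2.94, 17.5 and 10.3) and Sox6 were highest at E13.5, as were Gdf5, Nog and Erg. Sox5 was alike at E11.5 (7.14 FPKM, 6.65 to 7.66) and E13.5 (7.19, 6.67 to 7.75), and at 3.61 at E15.5.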

How the data were processed

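Per the labels' protocols, an RNeasy micro kit and the NuGEN Ovation RNA-Seq v2 cDNA kit were used on frozen sorted cells. The deposited values are FPKM for each RefSeq transcript, made by the authors, with a status per estimate. A deposited coverage value, the mean read depth over a transcript, equalled FPKM times 1 constant per library. The submitters' processing notes name Bowtie 0.12.7, TopHat 1.4.1 and mm9. Strand handling and the annotation's release were not given in the sources used here.

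FPKM was summed per gene symbol. Reads were estimated as coverage times length over the bases of 1 read (42.5, 39.5 and 42.5 in stage order), the tallest bin within 24 to 72 bases among single-transcript genes over 1000 bases. Depth was about 13900000, 13300000 and 17300000 reads. Amplification noise lies outside the counting intervals. Scripts (Python 3.11.15, SciPy 1.17.1) were tested on simulated data. Sequences were matched to GENCODE M21 by accession and to RefSeq by symbol.

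The 8 members and the 19 lists (165 entries, 164 matched) were chosen with earlier results of these data known. From lists, the 4 genes with the largest change and others of at least 5 FPKM could be named. Lower genes, among them Chrd, Wnt9a, Gdf7, Bmpr1b, Fev, Barx2, BMP targets and endothelial genes, were named for their roles after their values were seen. The 2 nearest genes per member were named. The 6 alternatives concern pseudocount, filters, scaling and transcript choice. Some listed marker genes are not reported here by name.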

Additional observations from a re-analysis of the deposited data

How the results depend on the processing

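Of 126 recomputed changes of single regulators, 15 moved by more than the distance from the middle of their log2 counting interval to its end. The other 111 did not, and 0 of those past 2-fold changed sign. Many of the 111 could not move. The 24 changes with no filter and the 6 with a mean of at least 5 FPKM are fixed, since these settings alter only which genes are compared. With the highest transcript per gene, only Prg4 could move. The sign of small changes from E13.5 to E15.5 turned for Osr1 (-0.01 with size factors, -0.19 rescaled) and Gdf6 (-0.10 rescaled). With size factors 4 of the 8 passed 2-fold upward from E11.5 to E13.5, and 3 from E11.5 to E15.5, since Osr1 dropped below 2-fold. Of all compared genes, 576 of 10925 and 1218 of 10926 then passed 2-fold upward. Relative to the median of all genes, Osr1 was at 1.014 (E13.5 against E11.5) as deposited and 0.9997 with size factors, which move that median from 0.07 to -0.03.

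With a pseudocount of 0.1, 6 of the 8 were higher at E13.5 than at E11.5, and 1 (Gdf5) was lower at E15.5 than at E13.5. For E15.5 against E11.5, 6 of the 8 were higher, against 1838 of 10939 compared genes. All-gene counts were then 1154 higher and 191 lower instead of 656 and 112 at the earlier step, 189 lower instead of 78 at the later step, and 431 lower instead of 234 for E15.5 against E11.5. Rescaled to the mean of the sums, 1 of the 8 (Gdf5) was lower at the later step. All-gene counts of lower genes were 139 there and 362 for E15.5 against E11.5. In that last comparison 3 of the 8 were higher, against 1166 of 10934 compared genes. With a mean of at least 5 FPKM only Osr1 and Osr2 remained to be compared, 1 of them higher at E13.5 and 1 at E15.5 than at E11.5, and all-gene counts were 381 and 43, 214 and 42, and 712 and 124, since fewer genes were compared. Counts of the 8 with no filter and with the highest transcript per gene were 5, 0 and 4, as reported. Depth limits Barx1 and Prg4 at E11.5, at about 2 and 16 estimated reads. No paired analysis was possible because each stage has 1 library.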
